A study of Mus musculus with 48 samples.

Results

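The 9 genes *Mbp*, *Mobp*, *Mog*, *Mag*, *Cnp*, *Cldn11*, *Mal*, *Ermn* and *Opalin* are genes of the myelin-forming oligodendrocytes. They were taken by name from the 48440 genes of a count table of amygdala RNA, and 8 of them had a count in any library and could be tested. RNA was sequenced from 48 adult male mice, labelled C57BL/6 and by the study's methods backcrossed to C57BL/6N, 8 in each of 6 groups, at 4 months of age. The mice were *Tph2*+/+, *Tph2*+/- or *Tph2*-/-, where *Tph2* encodes the brain enzyme for the first step of serotonin synthesis and was inactivated in all cells and from conception on. Within each genotype, mice were either reared without stress (C) or separated from their mother for 3 h per day from postnatal day 2 to 15 (MS). By the study's account, mice of both rearings were housed singly after weaning and went through behavioural tests before the tissue was taken. Rearing was assigned by litter and littermates of the 3 genotypes came from the same breeding, so that mice of a group need not come from separate litters. Both amygdalae of a mouse were powdered and split, and RNA from a portion was sequenced in a single library.

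Myelin is the membrane that oligodendrocytes wrap around axons. Its layers are pressed together by basic proteins on the cytoplasmic side, while channels at its edges stay open and its innermost layer faces the axon. In myelinated brain tissue the transcripts of these proteins belong to the most abundant ones of oligodendrocytes, and they are commonly used to mark mature cells of this type. Among the 9 genes, *Mbp* and *Mobp* encode basic proteins of compact myelin, and *Mal* encodes a lipid raft protein involved in the transport of myelin components. *Cldn11* encodes the claudin of the tight junctions between myelin layers. *Mog* encodes a glycoprotein of the outermost surface and *Mag* an adhesion molecule of the surface next to the axon. *Cnp* encodes 2',3'-cyclic nucleotide 3'-phosphodiesterase, an enzyme of the uncompacted, cytoplasm-filled channels, *Ermn* encodes ermin, a cytoskeletal protein of late oligodendrocytes, and *Opalin* a membrane glycoprotein of the same cells.

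Between 609489 and 6296568 read pairs were counted on genes in a library, with a median of 738490, while a median of 97.5% of the pairs with a unique position lay on no gene. A floor of 3 counts corresponded to between 2.88 and 7.07 CPM (counts scaled to library size) after scaling by the trimmed mean of M-values (TMM), with a median of 3.89, and covers the counting error alone. In 4 libraries, namely replicate 1 of *Tph2*+/+ C, replicate 2 of *Tph2*+/+ MS, replicate 2 of *Tph2*+/- C and replicate 1 of *Tph2*-/- C, *Gm42418* had more than 500000 counts, against a median of 273.5 over the 48 libraries. The libraries were made with a kit that keeps the strand of the RNA. The strand setting of the counting is not given in the sources used here, so that reads of a gene and of an exonic partner on the opposite strand cannot be told apart. For the 9 genes the counts of such partners are given too, and for other genes only the overlap.

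Exonic overlap with a gene on the opposite strand was present for 2 of the 9 genes. *Cnp* (GRCm38, chromosome 11, 100574904 to 100591729, plus strand) shares 154 exonic bases, 4.23% of its exon length, with *Dnajc7* (100582818 to 100620168, minus strand), which encodes a co-chaperone. The shared bases lie in the last exon (100591267 to 100591729) of *Cnp-202*, a transcript without coding annotation and 1 of 4 annotated for *Cnp*, and in an exon of 4 of the 10 transcripts of *Dnajc7* that is coding in this gene. This stretch is shown since it is the place where annotated exons of both genes overlap. It is read on the plus strand (GENCODE M21 transcripts, chr11:100591392-100591585). The 154 bases shared by exons of both genes are in capitals, with 20 bases of the *Cnp* exon in lower case on either side.
Cnp and Dnajc7: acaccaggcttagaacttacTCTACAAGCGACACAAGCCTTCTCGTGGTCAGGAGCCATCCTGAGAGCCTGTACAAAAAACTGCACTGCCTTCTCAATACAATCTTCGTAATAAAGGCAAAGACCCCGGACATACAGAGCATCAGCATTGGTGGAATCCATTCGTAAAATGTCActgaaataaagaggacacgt
*Ermn* (chromosome 2, 58045113 to 58052864, minus strand) shares 237 bases, 6.52% of its exon length, with *Galnt5* (57997884 to 58045860, plus strand), which encodes a glycosyltransferase that starts mucin-type O-glycans. These bases, from 58045624 to 58045860, are untranslated region (UTR) in both genes.

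The other 7 genes had no exonic base in common with an opposite gene. *Mbp* (chromosome 18, 82475146 to 82585637, plus strand) and *Mog* (chromosome 17, 37010743 to 37023398, minus strand) hold a small gene of the opposite strand within their introns, the pseudogene *Rpl21-ps8* and the non-coding *Gm22388*, with means of 4.27 and 1.90 counts. *Mog* ends 108 bases from *Zfp57* on the other strand, which had a mean of 10.9 counts. *Opalin* (chromosome 19, 41061710 to 41077113, minus strand) lies 2185 bases from its nearest protein-coding gene of the opposite strand, and *Mobp* (chromosome 9, 120149707 to 120181484, plus strand), *Mag* (chromosome 7, 30899176 to 30914873, minus strand), *Cldn11* (chromosome 3, 31149920 to 31164324, plus strand) and *Mal* (chromosome 2, 127633226 to 127656695, minus strand) lie between 26397 and 79828 bases away from theirs. On the same strand, *Mobp* shares 79 exonic bases with *Gm38642*, which was not analysed here. Among all protein-coding genes of the table, the 5250 with exonic bases opposite to another gene had mean counts with a median of 4.73, and for the 16433 without it was 0.375. A mean of at least 10 counts was reached by 38.5% of the former and 6.45% of the latter.

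The counts of the myelin genes were very unequal. *Cnp* took 19555 of the counts of all 9 genes in the 48 libraries, or 91.4%, with a mean of 407 and a range from 210 to 546 counts per library. Per length, its level of 141 CPM per kb of exon was above that of 99.4% of the protein-coding genes, and whether these counts came from RNA of *Cnp* or of the other strand cannot be told apart. *Mog* followed with 1118 counts in all, between 8 and 36 per library, and 17.2 CPM per kb (above 95.2% of the protein-coding genes). *Cnp* and *Mog* were the members with more than 3 counts in each of the 48 libraries. *Mbp*, a classic marker of compact myelin, had 384 counts, between 1 and 13 per library, and 1.18 CPM per kb, which was above 75.8% of the protein-coding genes. *Mobp* had 224 counts, from 0 to 13 per library with 4 libraries at 0, and *Mal* had 86 counts, from 0 to 6 with 13 libraries at 0. Per length these were 0.838 and 0.782 CPM per kb. *Cldn11* reached 18 counts, at most 2 per library, and was at 0 in 33 libraries. *Ermn* reached 17 counts, at most 4 per library, and was at 0 in 35. *Mag* had 3 counts in 2 libraries, and *Opalin* had none in any library, which allows up to 0.0788 CPM over all libraries together. In these counts the 9 genes that mark mature oligodendrocytes were thus low or at the floor except for the counts assigned to *Cnp*, with the limit given above, and, to a lesser degree, *Mog*.

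**Figure D1:**
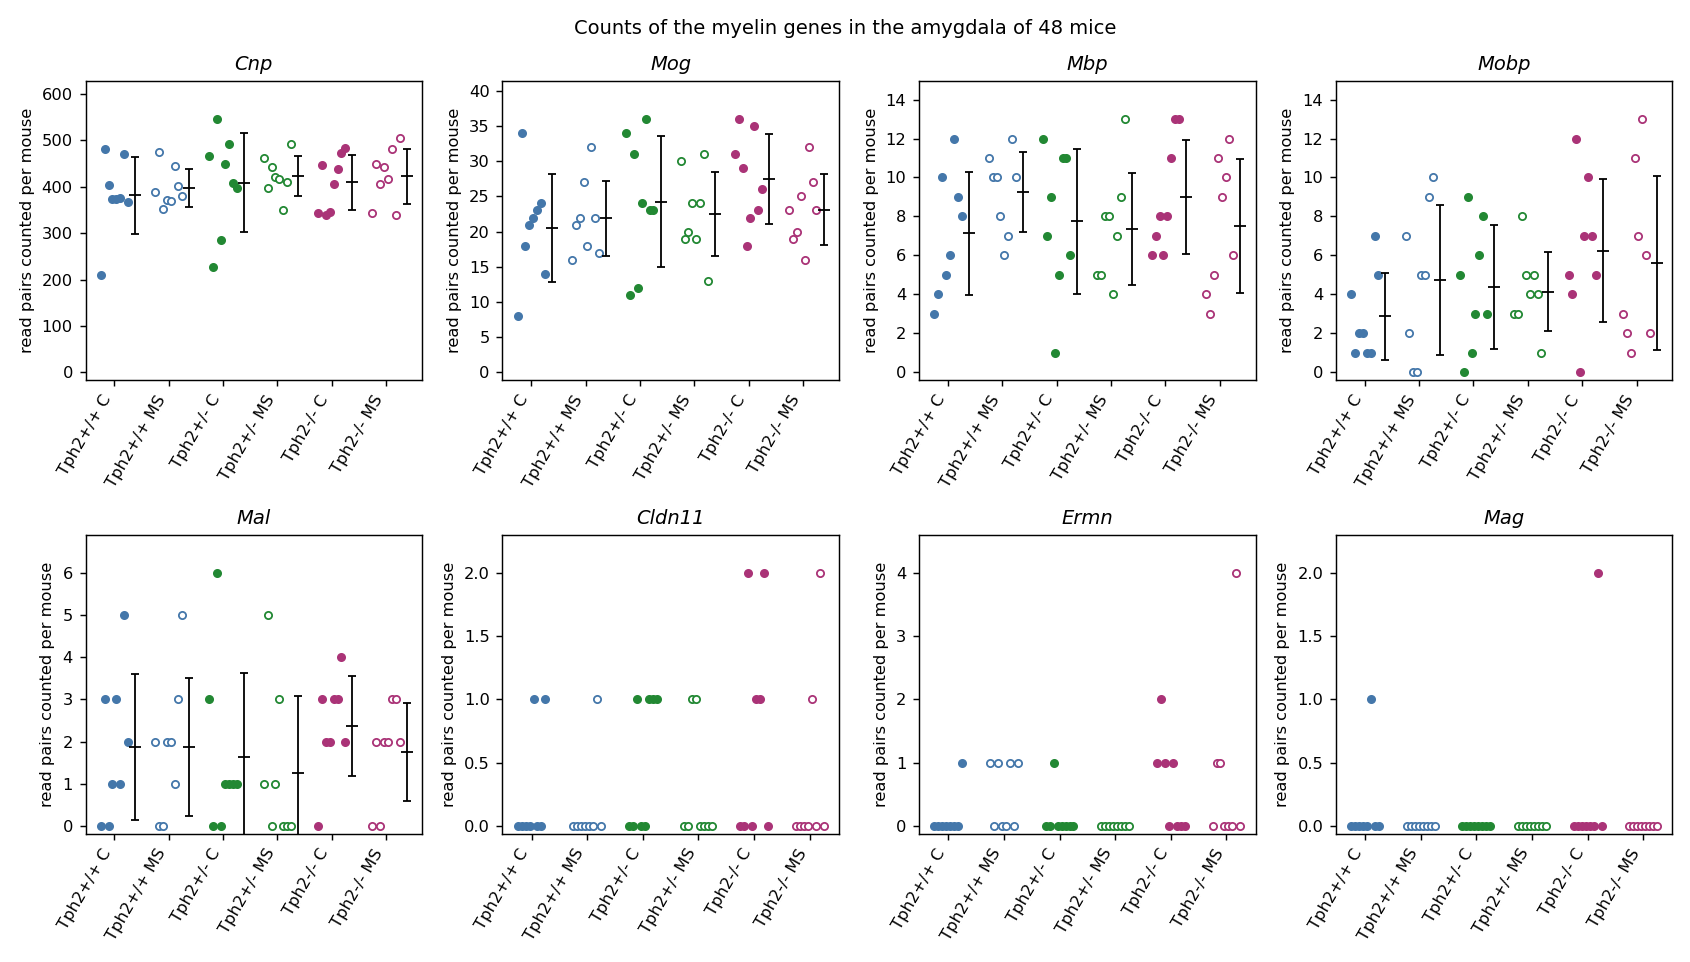
Read pairs counted per mouse (y axis, linear) for 8 of the myelin genes in the 6 groups of *Tph2* genotype and rearing. Points are mice, filled for C and open for MS, and the bars beside the points of *Cnp*, *Mog*, *Mbp*, *Mobp* and *Mal* are the mean and SD of 8 mice, drawn down to the axis where the SD exceeds the mean. *Cnp* lies between 210 and 546 counts, while *Cldn11*, *Ermn* and *Mag* do not exceed 4, and the groups overlap for every gene. *Opalin* was at 0 throughout and is not drawn.

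For *Cnp* the counts of the C mice were, as lowest, median and highest of 8, 210, 375 and 481 (*Tph2*+/+), 228, 428 and 546 (*Tph2*+/-) and 340, 422.5 and 484 (*Tph2*-/-). In the MS mice they were 351, 384.5 and 475 (*Tph2*+/+), 349, 418 and 492 (*Tph2*+/-) and 339, 429 and 505 (*Tph2*-/-). The 2 lowest counts came from the libraries of *Tph2*+/+ C and *Tph2*+/- C that were rich in *Gm42418*. After scaling, the level of *Cnp* in C mice was 532 ± 22.8 CPM (*Tph2*+/+), 504 ± 51.9 CPM (*Tph2*+/-) and 499 ± 25.7 CPM (*Tph2*-/-), each as mean and SD of 8 mice. In MS mice it was 494 ± 52.2, 523 ± 38.6 and 533 ± 79.8 CPM in the same order of genotypes, and the groups overlapped. Within groups, the CPM of *Cnp* varied by 9.55% (coefficient of variation), against 25.1% for *Mog* and 35% for *Mbp*. The variance of the raw counts of *Cnp*, which also holds differences in depth between libraries, was 11.8 times their mean.

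*Mog* counts of the C mice were 8, 21.5 and 34 (lowest, median and highest) for *Tph2*+/+, 11, 23.5 and 36 for *Tph2*+/- and 18, 27.5 and 36 for *Tph2*-/-, and those of the MS mice 16, 21.5 and 32, then 13, 22 and 31, and 16, 23 and 32 for the genotypes in this order. The highest median belonged to the *Tph2*-/- C mice, whose range overlapped with that of each other group. *Mbp* counts of the C mice were 3, 7 and 12 for *Tph2*+/+, 1, 8 and 12 for *Tph2*+/- and 6, 8 and 13 for *Tph2*-/-, and those of the MS mice 6, 10 and 12, then 4, 7.5 and 13, and 3, 7.5 and 12. For *Mbp* the variance of the raw counts within groups was 1.18 times the mean, which is close to the ratio of 1 of pure counting error. *Mobp* counts of the C mice were 1, 2 and 7 for *Tph2*+/+, 0, 4 and 9 for *Tph2*+/- and 0, 6 and 12 for *Tph2*-/-, and those of the MS mice 0, 5 and 10, then 1, 4 and 8, and 1, 4.5 and 13. All groups of these genes overlapped. *Mal* had from 10 counts in all (*Tph2*+/- MS) to 19 (*Tph2*-/- C) per group, and the group totals of *Cldn11* went from 1 (*Tph2*+/+ MS) to 6 (*Tph2*-/- C). The counts of *Mag* were 1 in replicate 6 of *Tph2*+/+ C and 2 in replicate 7 of *Tph2*-/- C.

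Summed over the 9 genes, a library held between 225 and 603 counts, with a median of 448. The summed CPM of the C mice was 577 ± 28.6 for *Tph2*+/+, 550 ± 60.1 for *Tph2*+/- and 557 ± 29.8 for *Tph2*-/- (mean and SD of 8 mice), and that of the MS mice 542 ± 50.2, 567 ± 41.3 and 582 ± 80.1 in this order. The highest and the lowest mean belonged to the *Tph2*-/- and *Tph2*+/+ MS mice, each of which had an SD larger than the difference between them, and the groups overlapped. As *Cnp* made between 86.3% and 95.3% of the summed count of a library, this sum was in the main a sum of *Cnp*. Without *Cnp*, the summed count was between 14 and 60 per library, of which *Mog* made 60.4% over all libraries, and the summed CPM of the C mice was 45.4 ± 6.88 for *Tph2*+/+, 46.1 ± 13 for *Tph2*+/- and 57.3 ± 12.4 for *Tph2*-/-. That of the MS mice was 47.3 ± 4.07, 44.3 ± 8.44 and 49.2 ± 15.9. Its range in the *Tph2*-/- C mice, from 34.8 to 76.1, covered that of the *Tph2*+/+ C mice, from 35.4 to 55. Leaving out the 4 libraries rich in *Gm42418* gave 46.8 ± 6.01 for *Tph2*+/+ C and 57.1 ± 13.4 for *Tph2*-/- C (n = 7 each). In pieces of tissue, fewer oligodendrocytes and less RNA of these genes per cell cannot be told apart.

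**Figure D2:**
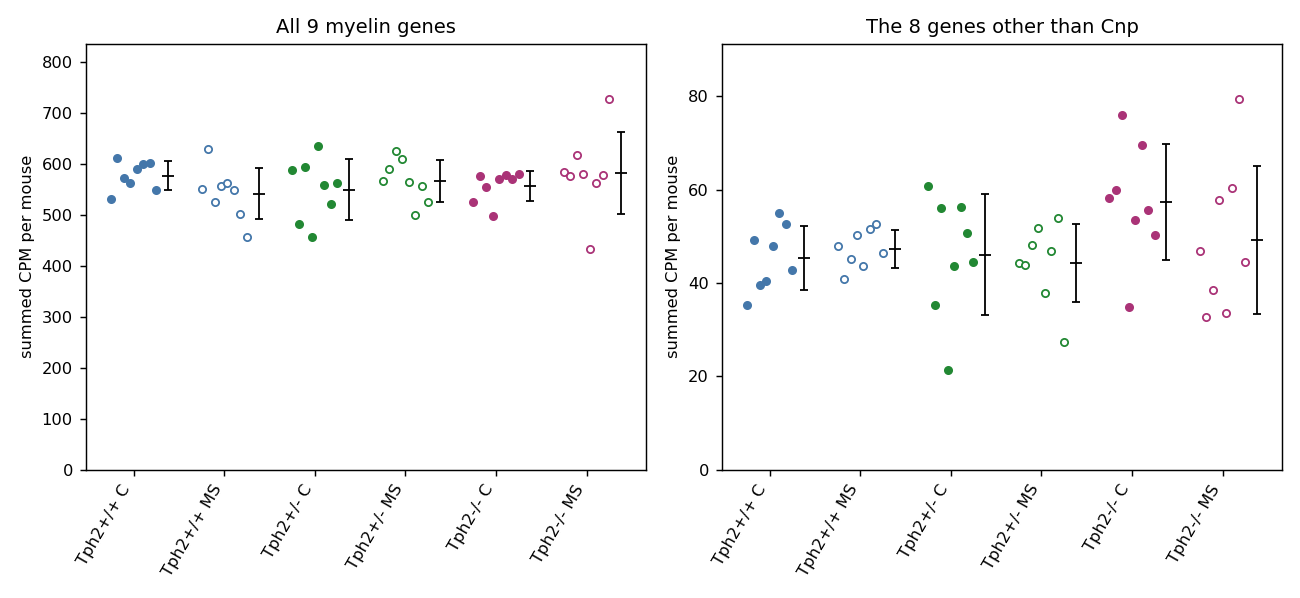
Summed CPM (y axis, from 0) of the 9 myelin genes (left) and of the 8 genes other than *Cnp* (right) in each mouse, by group. Points are mice, filled for C and open for MS, with the mean and SD of 8 mice beside them. The means lie between 542 and 582 with *Cnp* and between 44.3 and 57.3 without it, and all groups overlap.

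Differences were tested with edgeR's quasi-likelihood F test on all 32234 genes with a count. Following the thresholds of the study, a differentially expressed gene (DEG) had a nominal p under 0.01 together with a lg2FC beyond 0.2 in either direction. GE1 and GE2 stand for the interaction of genotype and MS, in which the effect of MS in *Tph2*+/- (GE1) or in *Tph2*-/- mice (GE2) is set against its effect in *Tph2*+/+ mice. They share the *Tph2*+/+ groups. For GE1, where 1.75% of all genes tested were DEGs, and for GE2, where 1.01% were, none of the 8 myelin genes was a DEG. The lg2FC of *Cnp* was 0.16 in GE1 (SE 0.14) and 0.20 in GE2 (SE 0.14), with a 95% interval from -0.12 to 0.44 and from -0.08 to 0.48. For *Mog* it was -0.02 (SE 0.27) in GE1 and -0.14 (SE 0.26) in GE2, for *Mbp* -0.27 (SE 0.43) and -0.42 (SE 0.42), and for *Mobp* -0.56 (SE 0.58) and -0.66 (SE 0.55). The lowest nominal p of the 8 genes was 0.115 in GE1, for *Ermn*, and 0.169 in GE2, for *Cnp*.

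Within each genotype, the comparison of MS with C asks what early separation did. Again 0 of 8 myelin genes were DEGs, in *Tph2*+/+ (1.57% of all genes), in *Tph2*+/- (1.01%) and in *Tph2*-/- mice (0.959%). *Cnp* had a lg2FC of -0.11, 0.05 and 0.09 in the 3 genotypes, each with an SE of 0.10, and *Mog* of -0.07, -0.09 and -0.21, with SEs between 0.18 and 0.19. The median lg2FC of the 8 genes was -0.09 in *Tph2*+/+, -0.09 in *Tph2*+/- and -0.22 in *Tph2*-/- mice, and that of the 5 genes with a mean of at least 1 count -0.07, -0.08 and -0.21, beside a median of 0 over all genes tested. In *Tph2*-/- mice, 43 other myelin and oligodendrocyte genes, described further below, had a median of 0.01, or 0.03 over the 23 with a mean of at least 1 count. The same contrast, over genes with a mean of at least 1 count, had medians of -0.36 for 10 neuronal, -0.33 for 7 astrocytic, -0.19 for 6 precursor and 0.02 for 5 microglial genes, and of -0.05 for 2 endothelial and -0.23 for 2 choroid plexus genes. The part of these cells was not tested.

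Between genotypes of the C mice, none of the 8 genes was a DEG for *Tph2*+/- against *Tph2*+/+ (1.49% of all genes), for *Tph2*-/- against *Tph2*+/+ (0.89%) and for *Tph2*-/- against *Tph2*+/- (1.68%). The most distant of the better counted genes was *Mobp*, with a lg2FC of 0.90 in *Tph2*-/- against *Tph2*+/+ (SE 0.40, nominal p of 0.0261, adjusted p = 0.787 in edgeR). Its total was 50 counts in *Tph2*-/- C and 23 in *Tph2*+/+ C. Without the 7 C mice with the highest animal numbers the lg2FC of *Mobp* was 1.41 (adjusted p = 0.826). In this setting 2 of the 8 genes, *Mobp* and *Ermn*, were DEGs, beside 0.826% of all genes. *Ermn* then had no count in *Tph2*+/+ C. *Mobp* passed the thresholds in 3 of 16 fits that each left out a library, namely without replicate 4 of *Tph2*-/- C (1.07, nominal p of 0.00781), replicate 1 (1.10, p of 0.00917) or replicate 7 (1.17, p of 0.00831) of *Tph2*+/+ C, and the highest p of these fits was 0.121, without replicate 3 of *Tph2*-/- C. The median lg2FC of the 8 myelin genes in this contrast was 0.35, but 0.15 over the 5 genes with a mean of at least 1 count, beside 0 over all genes. Against *Tph2*+/- C mice these medians were 0.50 and 0.19. For other cell types, over genes with a mean of at least 1 count, the medians against *Tph2*+/+ and *Tph2*+/- C mice were 0.13 and 0.31 for astrocytes, 0.20 and 0.08 for precursors and 0.02 and 0.00 for microglia. They were -0.07 and -0.25 for 2 endothelial and 0.49 and 0.33 for 2 choroid plexus genes. Over all 6 genes of each list they were 0.51 and 0.84 for endothelium and 1.32 and 0.90 for the choroid plexus. Against *Tph2*+/-, *Pecam1* of endothelium (9 counts against 0, nominal p of 0.000701, adjusted p = 0.131) and *Slc1a2* of astrocytes (0.40, nominal p of 0.00582, adjusted p = 0.497) were DEGs. *Slc1a2* has 189 exonic bases opposite to another gene. For markers of neurons the medians were 0.42 and 0.46 over 10 genes. Of these 10, against *Tph2*+/+, *Nefl* (0.45, nominal p of 0.00917) and *Syt1* (0.69, nominal p of 0.00203) were DEGs but had an adjusted p of 0.787. The call of *Nefl*, which has 1108 exonic bases opposite to another gene, was lost in 7 of 11 other settings and in 9 of 16 fits with a library left out, and that of *Syt1* in 5 of 11 settings. The summed CPM of the 10 genes was 82.5 ± 19.1 (from 47.2 to 116) in the *Tph2*+/+ and 119 ± 26.4 (from 60.3 to 146) in the *Tph2*-/- C mice. None of the 10 neuronal genes was at 0 over all libraries, and their part in the values of the myelin genes was not tested.

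Between genotypes of the MS mice, 0 of 8 myelin genes were DEGs for *Tph2*+/- against *Tph2*+/+ (1.29% of all genes) and for *Tph2*-/- against *Tph2*+/+ (1.65%), and 1 was for *Tph2*-/- against *Tph2*+/- (0.636%). This gene was *Ermn*. In *Tph2*-/- MS it had 4 counts in replicate 7, 1 in replicate 2, 1 in replicate 3 and none in the other 5 mice, and in *Tph2*+/- MS it was at 0 in all 8. With 0 in a whole group the fitted lg2FC of 2.82 (SE 0.93, nominal p of 0.00381, adjusted p = 0.836) depends on the prior count and bounds nothing. Without replicate 7 of *Tph2*-/- MS the edgeR p was 0.0822. All counts of *Ermn* in these groups were within the floor except those of replicate 7. In the other groups *Ermn* had 1, 1 and 5 counts in all in the C mice (*Tph2*+/+, *Tph2*+/- and *Tph2*-/-) and 4 in the *Tph2*+/+ MS mice.

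**Figure D3:**
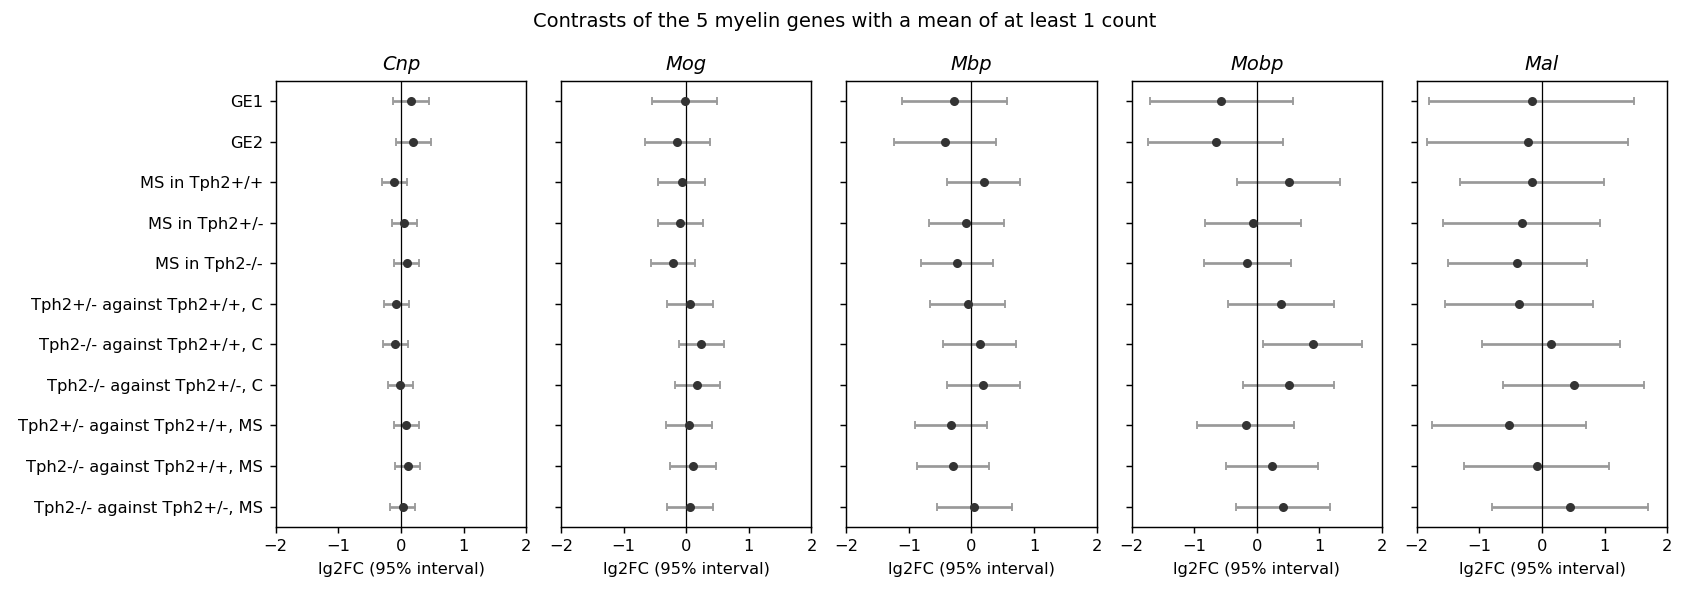
lg2FC (x axis) with its 95% interval in each of 11 contrasts (rows) for *Cnp*, *Mog*, *Mbp*, *Mobp* and *Mal*, from edgeR. The intervals of *Cnp* are the narrowest, with bounds between -0.31 and 0.48, and the interval of *Mobp* in *Tph2*-/- against *Tph2*+/+, C is the only one drawn that does not include 0 (0.11 to 1.69).

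For *Cnp*, the gene with the most counts, the lg2FC stayed between -0.11 and 0.20 in all 11 contrasts and the lowest nominal p was 0.169. The bounds of its 95% intervals ran from -0.31 to 0.48. For *Mog* they ran from -0.66 to 0.61, for *Mbp* from -1.24 to 0.78, for *Mobp* from -1.74 to 1.69 and for *Mal* from -1.83 to 1.69, so that larger differences were within reach of the error for the genes with few counts. For *Mag* and *Opalin* no fold change is given, as nearly all libraries were at 0.

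The genes on the opposite strand were measured at other levels than their partners. *Dnajc7* had 8 to 33 counts per library (mean 18.1) and *Cnp* 210 to 546, whereas *Galnt5* had 7 to 66 (mean 33.5) and *Ermn* 0 to 4. Per length these were 4.69 CPM per kb for *Dnajc7* and 141 for *Cnp*, and 9.54 for *Galnt5* and 0.127 for *Ermn*. *Dnajc7* passed the thresholds in none of the 11 contrasts. *Galnt5* passed them for *Tph2*-/- against *Tph2*+/+ in MS mice, with a lg2FC of -0.43 (SE 0.16, nominal p of 0.00880, adjusted p = 0.558) and 35.8 ± 16.5 against 48 ± 18.7 CPM (SD, n = 8 each). Its counts were 8, 33.5 and 40 (lowest, median and highest) in the former and 10, 41.5 and 53 in the latter, which overlapped, and the exact two-sided permutation p of the CPM was 0.183. The call was lost with filterByExpr (nominal p of 0.118), with robust edgeR (0.171), with DESeq2 without a prior (0.155) and in 8 of 16 fits that left out a library, of which the highest p was 0.0690. Over the 48 mice, where both genes of a pair share the scaling of a library, Spearman's rho of CPM was -0.10 for *Cnp* and *Dnajc7* and 0.22 for *Ermn* and *Galnt5*.

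**Figure D4:**
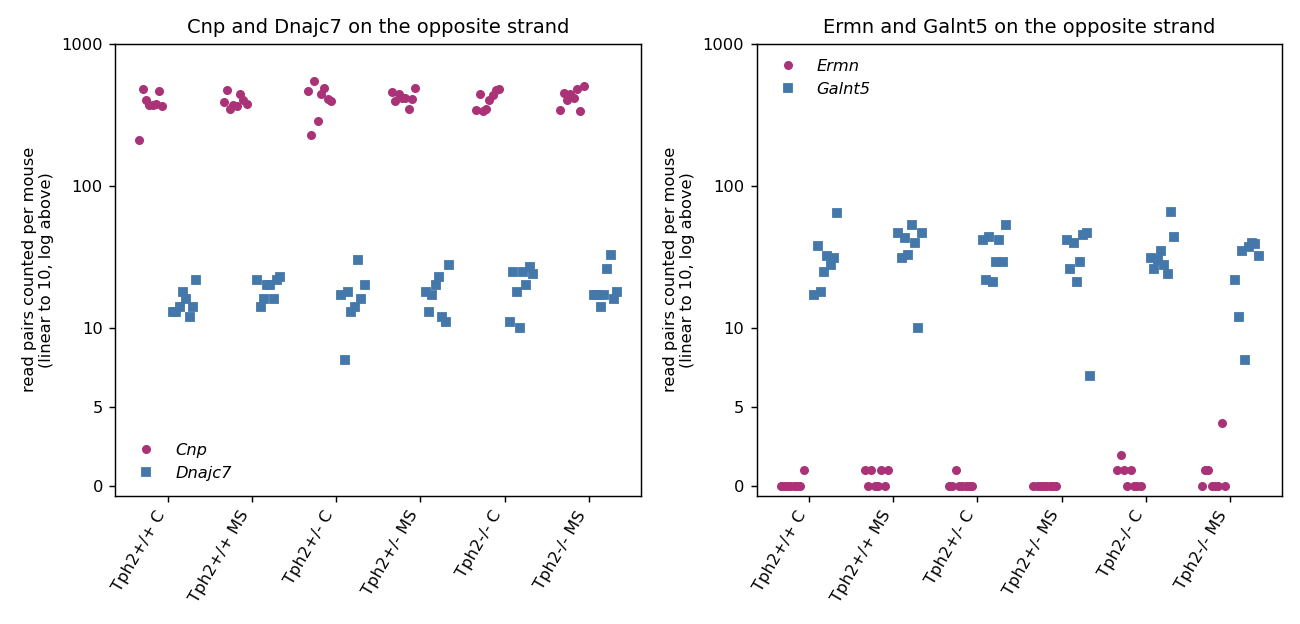
Read pairs counted per mouse (y axis, linear up to 10 and logarithmic above) for *Cnp* and *Dnajc7* (left) and for *Ermn* and *Galnt5* (right), genes whose exons overlap on opposite strands, by group. Each point is a mouse. *Cnp* lies above *Dnajc7* and *Galnt5* above *Ermn* in each of the 48 mice.

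Among themselves the myelin genes varied together only weakly. Of the pairs among *Mbp*, *Mobp*, *Mog*, *Cnp* and *Mal*, *Mobp* and *Mal* had the highest Spearman's rho of CPM over the 48 mice (0.33), *Mbp* and *Mobp* had 0.24, and *Cnp* had -0.22 with *Mbp*, -0.23 with *Mobp* and 0.20 with *Mog*. At these counts such values are a description and no finding. The genes whose CPM followed the sum of all 9 most closely, among the 5642 genes whose mean count reached 10, were *Tti2* (rho 0.60), *4933427G23Rik* (0.60), *9830144P21Rik* (0.59), *Gm17529* (0.58) and *Map3k15* (0.58). None of them was among the closest to the sum without *Cnp*, which were *Rab3c* (0.60), *Usp9x* (0.57), *Hsp90aa1* (0.56), *Ddx3x* (0.55) and *Ptma* (0.55). The median rho over all 5642 genes was 0.08 and 0.00 for these sums, which contain the libraries' shared error of scaling.

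A list of 44 other myelin and oligodendrocyte genes had 43 genes with a count, 23 of them with a mean of at least 1 and 6 with a mean of at least 10. Its best counted genes were *Plekhb1* with a mean of 48.9 counts, *Nkx6-2*, with 246 exonic bases opposite to another gene, with 43.2 and *Evi2a* with 35.1. Of the 8 genes of oligodendrocyte precursors 7 had a count, with a median of 1.84 for their mean counts. For the 9 myelin genes the median was 1.79, which was above the 1.09 of the 44 other myelin genes, the 0.542 of 6 endothelial and the 0.396 of 6 choroid plexus genes, while the medians were 3.94 for 10 neuronal, 5.86 for 8 astrocytic and 5.73 for 8 microglial genes.

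Of the 43 other myelin genes tested, none was a DEG in GE1, GE2, MS against C in *Tph2*+/+ mice or *Tph2*+/- against *Tph2*+/+ in MS mice, and 1 was in each of 5 other contrasts (2.33% of the list, beside 0.636% to 1.68% of all genes). There were 2 (4.65%) for MS against C in *Tph2*-/- mice and for *Tph2*-/- against *Tph2*+/+ in C mice, beside 0.959% and 0.89% of all genes, and at 1 or 2 genes such shares are a description. *Enpp2*, which encodes autotaxin and is known from oligodendrocytes as well as from the choroid plexus, passed most often. Its counts in MS mice were 0, 2 and 4 (lowest, median and highest) for *Tph2*+/+, 2, 2 and 9 for *Tph2*+/- and 0, 5.5 and 35 for *Tph2*-/-, and in C mice 0, 1.5 and 13, then 1, 7.5 and 18, and 1, 9 and 38. Single *Tph2*-/- mice were thus high and the groups overlapped. The lg2FC was 2.75 (SE 0.38, adjusted p = 2.31e-09) for *Tph2*-/- against *Tph2*+/+ and 1.55 (SE 0.32, adjusted p = 0.0162) against *Tph2*+/- in MS mice, and 1.47 (SE 0.33, adjusted p = 0.0234) against *Tph2*+/+ in C mice. The nominal thresholds were also passed for *Tph2*+/- against *Tph2*+/+ in C mice (1.13, nominal p of 0.00126, adjusted p = 0.231) and, with a lower level after MS, in *Tph2*+/- mice (-1.16, nominal p of 0.000653, adjusted p = 0.390). Both of these calls were lost in 5 of 10 other settings. The difference in MS mice from *Tph2*+/+ passed the nominal thresholds in each of 10 other settings, with a lg2FC from 0.50 to 2.80, and with each of 16 libraries left out. Its adjusted p stayed below 0.05 in 6 of these settings and was above it in both DESeq2 fits, with filterByExpr and with robust edgeR. That in C mice was lost in 5 of 10 settings, among them DESeq2 and robust edgeR, and moved to 0.96 (adjusted p = 0.797) without replicate 7 of *Tph2*-/- C. The difference from *Tph2*+/- in MS mice was lost in 4 of 10 settings, and moved to 1.20 (adjusted p = 0.845) without replicate 5 of *Tph2*-/- MS.

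Beside *Enpp2*, *Ttr* of the choroid plexus list was higher in *Tph2*-/- than in *Tph2*+/+ MS mice (1.89, SE 0.55, nominal p of 0.000564, adjusted p = 0.129), with 33 against 8 counts in all, and was the only DEG of the 6 genes of that list in this contrast. The median lg2FC of the 6 genes was 0.44 here, or 0.88 over the 2 with a mean of at least 1 count. None of these 6 genes was at 0 over all libraries, and their summed CPM lay between 66 and 133.5 in the *Tph2*+/+ and between 72.6 and 141 in the *Tph2*-/- MS mice, most of it from *Kcnj13*, which has 623 exonic bases opposite to another gene. For *Tph2*-/- against *Tph2*+/+ in C mice, none of the 6 genes was a DEG, their median lg2FC was 1.32, or 0.49 over the 2 with a mean of at least 1 count, and *Ttr* had 44 against 17 counts. The part of the choroid plexus in the values of *Enpp2* was not tested. *Enpp2* itself has 345 such bases.

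The remaining DEGs of the list rested on few counts. *Sox10*, a transcription factor of the oligodendrocyte lineage, had 4 counts in *Tph2*-/- C and 19 in *Tph2*-/- MS (2.01, nominal p of 0.00448, adjusted p = 0.759). *Ugt8a*, which encodes the enzyme for galactosylceramide, had 9 counts in *Tph2*-/- C and none in *Tph2*-/- MS (nominal p of 0.000445, adjusted p = 0.512), a call that was lost with DESeq2. *Nkx2-2*, another transcription factor of the lineage, had 37 counts in *Tph2*-/- C and 60 in *Tph2*+/+ C (-0.90, nominal p of 0.00829, adjusted p = 0.787), and *Adamts4*, a protease of mature oligodendrocytes, 9 in *Tph2*-/- C and 29 in *Tph2*+/- C (-1.61, nominal p of 0.00399, adjusted p = 0.406). *Nkx2-2* has 278 and *Adamts4* 171 exonic bases opposite to another gene. None of the 4 genes passed after adjustment, and each lost its call in at least 1 other setting, *Nkx2-2* in 5 of 10. Over the list as a whole, the summed CPM of the C mice was 317 ± 40.2 for *Tph2*+/+, 316 ± 28.3 for *Tph2*+/- and 340 ± 16.7 for *Tph2*-/-, and that of the MS mice 322 ± 16.7, 318 ± 22.9 and 327 ± 47.2 (mean and SD of 8 mice). Its median lg2FC was between -0.13 and 0.25 over the 11 contrasts, beside 0 over all genes.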

How the data were processed

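Total RNA of 48 amygdala samples was sequenced as stranded, paired libraries. The authors mapped the reads to GRCm38.p5 and deposited raw counts of read pairs per Ensembl gene without normalization. Their processing notes name STAR, HTSeq and DESeq2, and the annotation and strand setting of counting are not given in the sources used here. The 5 special rows of the table, such as pairs on no gene, were kept out of library sizes. Genes were placed with GENCODE M21 (GRCm38), which holds 48058 of the 48440 genes.

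All genes with a count except *Lars2*, which the study also removed, entered the tests. TMM scaling was followed by a fit in edgeR 4.0.16 (R 4.3.3) with a coefficient per group (6 groups of 8 mice), and p-values were adjusted by Benjamini-Hochberg over 32234 genes. SE is the lg2FC divided by the square root of F, and intervals are 1.96 SE wide on each side. The labels do not tie mice to litters, so that p-values measure the spread between the mice sequenced. DESeq2 1.42.0 was an alternative (the study used an older version), as were its size factors, filterByExpr, a minimum mean of 10 counts, a fit with *Lars2*, a replicate block, a fit of only the groups compared, robust edgeR, and leaving out the libraries rich in *Gm42418* or the 7 C mice with the highest animal numbers. Fits with a library left out were added after seeing the data. Likeness was Spearman's rho of CPM, and permutation tests were exact. The method was tested on simulated GE1 data, where edgeR called 181 of 200 genes changed by a lg2FC of 1.5 and 334 of 30460 unchanged ones. The 200 genes were drawn only from genes with higher mean counts than *Mobp*, *Mal*, *Cldn11*, *Ermn* and *Mag*. For these myelin genes the simulation therefore gives no rate of detection. Python 3.11.15 with pandas 2.3.3, SciPy 1.17.1 and matplotlib 3.10.9 was used.

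The genes and lists were chosen with earlier results of these data known. Named are the 9 genes, genes that overlap their exons, DEGs of the other myelin list, and the 5 genes most like each sum. Other genes (best counted genes of the list, DEGs of marker lists, neighbours) were named after their values were seen. Some genes of the lists are not reported here.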

Additional observations from a re-analysis of the deposited data

Results flagged for a closer look

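In 67 groups of 8 mice with unequal values (the 8 myelin genes with counts, *Dnajc7*, *Galnt5* and both sums), the highest or lowest mouse was compared with the rest of its group, and chance alone would single out about 1 in 20 groups of well counted genes. *Galnt5*, opposite to *Ermn*, had a mouse far above the others in each C group, namely 89.6 CPM in replicate 8 of *Tph2*+/+ C (group median 40.3), 69.2 CPM in replicate 8 of *Tph2*+/- C (group median 43.03) and 72.0 CPM in replicate 7 of *Tph2*-/- C (group median 42.1). These 3 mice are among the 7 C mice with the highest animal numbers. *Dnajc7*, opposite to *Cnp*, had 34.4 CPM in replicate 6 of *Tph2*-/- MS, against a group median of 23.9. Of the myelin genes, those with a mean below 1 count had such mice. *Ermn* had 5.88 CPM in replicate 7 of *Tph2*-/- MS, 1.38 CPM in replicate 8 of *Tph2*+/+ C and 0.985 CPM in replicate 3 of *Tph2*+/- C. *Cldn11* had 2.94 CPM in replicate 7 of *Tph2*-/- MS and 1.12 CPM in replicate 7 of *Tph2*+/+ MS, and *Mag* had 1.45 CPM in replicate 6 of *Tph2*+/+ C and 2.18 CPM in replicate 7 of *Tph2*-/- C. In each of these groups the median was 0, so that a few counts in 1 mouse stand out by construction and the rate of chance does not apply, and the values stand for 1 or 2 counts, or 4 for *Ermn* in *Tph2*-/- MS. *Cnp*, *Mog*, *Mbp*, *Mobp*, *Mal* and both sums had no such mouse. What sets these mice apart was not tested.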

How the results depend on the processing

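The number of DEGs among the myelin genes stayed at 0 in 9 of 11 contrasts in every setting run. For *Tph2*-/- against *Tph2*+/+ in C mice it was 2 without the 7 C mice with the highest animal numbers, namely *Mobp* (lg2FC 1.41, nominal p of 0.00966) and *Ermn*, which then had no count in *Tph2*+/+ C (0.826% of all genes were DEGs in this setting), and it was between 0 and 1 with a library left out. For *Tph2*-/- against *Tph2*+/- in MS mice it fell from 1 to 0 with DESeq2 without and with a prior, with filterByExpr and a mean of at least 10 counts (where *Ermn* was not tested), and was between 0 and 1 with a library left out. With the replicate block it was also 0 (*Ermn* lg2FC 2.77, nominal p of 0.0206), but replicate numbers do not pair the mice, as same-numbered mice had a median correlation of 0.00 over 120 pairs. The lg2FC of 2 genes changed sign in GE1, *Mog* to 0.015 and *Cldn11* to 0.084 without the 7 C mice, and *Cldn11* to 0.17 with the block, all far within their error. The causes were not tested. Of the other values, 244 kept direction and side of the threshold, 13 moved by over 1 SD, 17 lost and 4 gained a call. Depth limits these results, as 6 of the 8 tested genes had a mean below 10 counts.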
